A study of Mus musculus with 4 samples.

Results

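Among the LMO2 binding peaks of pro-B(+) cells, 130 of 1585 (8.2%) were assigned to genes whose description names a receptor, an antigen, an interleukin, a chemokine, a cytokine or an integrin. They belonged to 109 genes, and they were chosen by these words alone, with genes left out whose description also names a transcription factor, a zinc finger, a homeobox, a nuclear receptor, a kinase or a phosphatase. The binding was measured by ChIP-seq, which recovers the DNA that antibodies to LMO2 bring down with the protein and sequences it, in 2 LMO2 ChIP samples and 2 input samples of chromatin without this step. All 4 samples came from the pro-B(+) line, an Ebf1-deficient C57BL6/J cell line that was derived from fetal liver, kept its ability to enter the T-cell lineage, and was cultured on OP9 stromal cells with SCF, IL-7 and Flt3L. Both the ChIP samples and the inputs thus lacked EBF1, a factor that B cells need, and all values describe 1 line in 1 culture condition, with no cells without LMO2 to set beside them. The list gives 1 peak score per peak for both replicates together, so the spread between replicates and the number of reads behind a peak are unknown, and no test between samples could be made. The peak score is the normalized score of the peak caller, it has no unit, and no peak of the list scored below 15.

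LMO2 is a LIM domain protein that does not bind DNA by itself. It bridges DNA-binding partners, among them bHLH factors such as TAL1 and LYL1, which read E-boxes, and GATA factors, and it is best known for its role in blood stem and progenitor cells and as an oncogene of T-cell leukemia. Receptors for cytokines and chemokines let a progenitor sense survival signals and find its niche, while the CD antigens and immunoglobulin-like receptors on its surface mark its stage and mediate contact with other cells.

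The sequences of 10 of these peaks are shown, 9 at immune receptor and antigen genes and 1 in the Igh locus. Each is the plus strand of mm10 over the whole 207 bp peak, in lower case, with capitals for matches on either strand to the RUNX word TGTGGT, the ETS word CTTCCT, the bHLH word CAGCTG, and the GATA words AGATAA and TGATAA. The first set holds the 3 peaks of Ccr9 and the 3 peaks of Cd47, the immune genes with the most peaks outside repeated sequence, and it shows how much peaks of 1 gene differed.
Ccr9, peak score 39.4, chr9:123754482-123754688: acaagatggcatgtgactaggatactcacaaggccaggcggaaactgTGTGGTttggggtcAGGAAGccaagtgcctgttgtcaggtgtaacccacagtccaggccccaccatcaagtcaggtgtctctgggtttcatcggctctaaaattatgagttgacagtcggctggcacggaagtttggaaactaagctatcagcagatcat
Ccr9, peak score 28.3, chr9:123756834-123757040: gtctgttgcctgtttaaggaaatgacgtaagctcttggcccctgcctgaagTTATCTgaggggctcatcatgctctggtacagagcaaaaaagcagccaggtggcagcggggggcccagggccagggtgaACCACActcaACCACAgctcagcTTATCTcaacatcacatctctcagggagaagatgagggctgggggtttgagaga
Ccr9, peak score 15.5, chr9:123762906-123763112: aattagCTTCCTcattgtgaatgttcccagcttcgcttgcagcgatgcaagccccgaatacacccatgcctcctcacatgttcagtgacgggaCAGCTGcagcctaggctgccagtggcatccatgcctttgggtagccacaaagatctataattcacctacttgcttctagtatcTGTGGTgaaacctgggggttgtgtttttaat
Cd47, peak score 40.6, chr16:49800330-49800536: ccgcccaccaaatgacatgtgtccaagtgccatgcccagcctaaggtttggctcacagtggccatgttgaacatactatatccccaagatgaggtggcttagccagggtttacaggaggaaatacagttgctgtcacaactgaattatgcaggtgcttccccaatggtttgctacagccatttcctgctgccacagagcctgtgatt
Cd47, peak score 18.3, chr16:49818742-49818948: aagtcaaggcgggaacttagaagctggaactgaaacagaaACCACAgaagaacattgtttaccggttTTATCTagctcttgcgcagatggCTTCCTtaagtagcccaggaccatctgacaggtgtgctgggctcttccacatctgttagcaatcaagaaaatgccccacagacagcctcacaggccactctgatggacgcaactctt
Cd47, peak score 22.8, chr16:49848153-49848359: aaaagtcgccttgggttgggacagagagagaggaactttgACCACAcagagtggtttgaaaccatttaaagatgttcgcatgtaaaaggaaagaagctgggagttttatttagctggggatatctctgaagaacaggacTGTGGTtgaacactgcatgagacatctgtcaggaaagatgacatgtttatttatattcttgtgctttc

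The second set holds the highest-scoring cytokine receptor peak (Il1r2), the higher peak of Il17ra, the only member window with all 4 kinds of word (Cd69), and a peak within the Igh locus that the list assigned to Adam6b.
Il1r2, peak score 48.2, chr1:40051281-40051487: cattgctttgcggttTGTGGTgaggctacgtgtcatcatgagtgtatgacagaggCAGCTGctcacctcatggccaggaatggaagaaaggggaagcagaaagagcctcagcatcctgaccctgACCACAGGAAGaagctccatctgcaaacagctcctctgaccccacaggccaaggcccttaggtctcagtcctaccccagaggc
Il17ra, peak score 31.4, chr6:120466697-120466903: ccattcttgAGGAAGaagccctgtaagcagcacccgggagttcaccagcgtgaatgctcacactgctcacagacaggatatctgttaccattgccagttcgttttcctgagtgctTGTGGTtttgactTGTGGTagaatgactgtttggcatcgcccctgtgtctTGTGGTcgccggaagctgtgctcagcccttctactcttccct
Cd69, peak score 25, chr6:129284474-129284680: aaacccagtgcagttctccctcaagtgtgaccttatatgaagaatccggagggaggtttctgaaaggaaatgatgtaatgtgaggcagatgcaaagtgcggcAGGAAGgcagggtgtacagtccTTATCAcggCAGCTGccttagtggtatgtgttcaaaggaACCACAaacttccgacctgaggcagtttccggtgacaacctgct
Adam6b, peak score 28.4, chr12:113427437-113427643: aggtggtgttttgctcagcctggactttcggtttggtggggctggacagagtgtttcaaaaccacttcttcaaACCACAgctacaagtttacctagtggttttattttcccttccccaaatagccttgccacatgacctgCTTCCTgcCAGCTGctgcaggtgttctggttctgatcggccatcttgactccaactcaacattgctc

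In the Ccr9 peaks, a RUNX word occurred in each of the 3 sequences, whereas the 2 GATA words stood in the middle peak alone. The Cd47 peak with the highest score held none of the 4 words, although the other Cd47 peaks each held at least 1 RUNX word. In the Il1r2 peak, a RUNX word and an ETS word overlapped by their shared A. A match is only the presence of these letters and does not show which factor was bound there.

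The median peak score of the receptor and cytokine peaks was 20.6 (15 to 113.2), and that of the whole list was 20.3 (15 to 162.4). A score of at least 30 was reached by 23 of the 130 peaks (17.7%, Wilson 95% interval 12.1 to 25.2), against a background of 21.6% of all listed peaks. The strength of binding at these genes was thus close to that of the list as a whole, and the intervals cover the number of peaks counted only. The median focus ratio, the share of a peak's reads that lie where a single bound site would place them, was 0.7875 against 0.788 in the list.

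The genes were sorted into 18 groups by role. Of these, 9 groups of immune receptors, antigens and cytokines held 57 peaks at 43 genes, with a median score of 21.4 (15.1 to 106.2), and 11 of the 57 peaks (19.3%, 11.1 to 31.3) scored at least 30. The 73 peaks at the 66 other genes had a median of 19.4 (15 to 113.2), and 12 of them (16.4%, 9.66 to 26.6) scored at least 30. The intervals of both shares overlapped over most of their length.

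**Figure D1:**
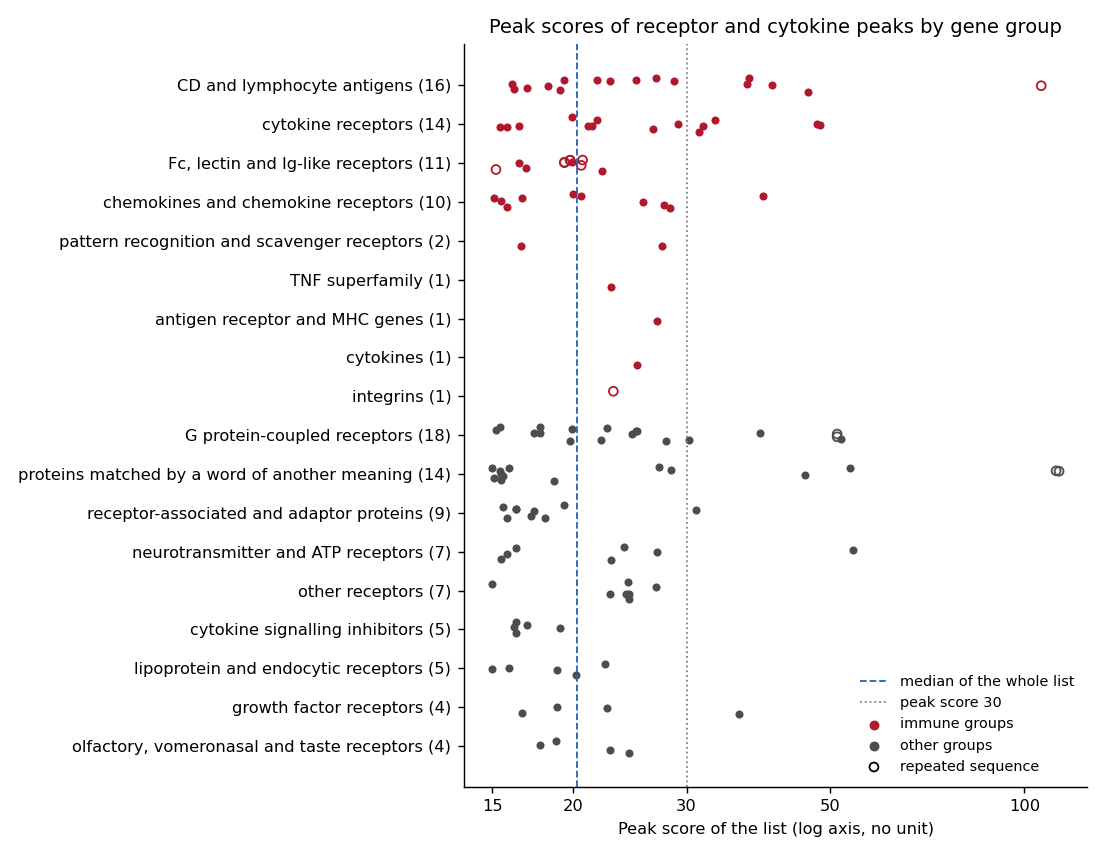
Peak score (horizontal log axis, no unit) of each of the 130 receptor and cytokine peaks, in rows by gene group with the number of peaks in brackets; red points are immune groups, grey points the other groups, and open circles peaks in repeated sequence. In most groups with more than 2 peaks the points lie on both sides of the dashed line at the list median of 20.3, and 3 peaks above 100 are all open circles.

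The 10 cytokine receptor genes carried 14 peaks with a median score of 24.2. None of these peaks was in repeated sequence, which is defined below by copies in the genome, although the Il1r2 peak lay in an annotated LTR element. By the list, none of the 14 lay within 1 kb of the transcription start site (TSS) of its gene, but by RefSeq, which holds further transcripts, the Il2rb peak did. Il1r2, the decoy receptor that binds interleukin 1 without signalling, had the highest score of the group, 48.2, at -33330 bp from its TSS (distances are those of the list unless RefSeq is named, and negative ones are upstream). Ifnar2, a chain of the type I interferon receptor, had peaks of 47.8 at -5975 bp and 21.1 at -17379 bp. Lifr, the receptor of leukemia inhibitory factor, had peaks of 33.2 at -44356 bp and 19.9 at -37073 bp. By RefSeq, whose first Lifr TSS lies nearer to them, the former was at -5394 bp and the latter within the gene, at 1889 bp. Il21r, the interleukin 21 receptor of lymphocytes, had a peak of 31.8 in intron 7 of 8 and a peak of 15.4 in the intergenic sequence beyond it. Il17ra, the shared receptor chain of several interleukin 17 cytokines, had 2 peaks of like height, 31.4 in intron 1 of 12 and 29.1 in intron 3 of 12.

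Single peaks marked the remaining cytokine receptors. Il10ra, which receives the anti-inflammatory interleukin 10, had a peak of 26.6 at -5288 bp that held 3 RUNX words. Il2rb, the beta chain shared by the receptors of interleukin 2 and interleukin 15, had a peak of 21.8 at -17076 bp by the list but at -521 bp from another Il2rb TSS of RefSeq, and Csf1r, the macrophage colony-stimulating factor receptor, a peak of 21.4 at -14273 bp. Il20ra and Prlr, the receptors of interleukin 20 and prolactin, had the lowest single peaks, 16.5 and 15.8. Across the group, 10 of 14 windows of 200 bp held a RUNX word, 8 an ETS word, 7 a bHLH word and none a GATA word, where the shares over all windows were 55.0%, 51.5%, 33.6% and 16.2%. With only 14 windows, no difference from the list is read from these counts.

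The proteins that damp cytokine signals also had peaks, all of them low. Cish, which is induced by cytokines and restrains STAT5 signalling, had a peak of 16.2 at its promoter, 57 bp from the TSS, and another of 16.3 at 16489 bp downstream. Socs1, Socs3 and Socs6, suppressors of cytokine signalling, had single peaks of 19.1, 17 and 16.3, and the Socs1 peak lay 116910 bp from the TSS within the gene Clec16a. No peak of these 4 genes reached a score of 20.3, the median of the list.

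Chemokines and their receptors had 10 peaks at 7 genes with a median score of 20.3. Of the 10, 8 were intergenic, against 48.5% of all listed peaks and 68.4% of the immune peaks, and no difference is read from so few. Ccr9, which guides progenitors to the thymus and T cells to the gut, had 3 peaks within 8424 bp of each other, all upstream. Their scores were 39.4 at -12626 bp, 28.3 at -10274 bp and 15.5 at -4202 bp, so the farthest peak was the highest. Cxcr5, the receptor that draws B cells to follicles, had a peak of 27.7 at -11505 bp. Cmklr1, the chemerin receptor, had a peak of 25.7 at -20381 bp and one of 15.1 at its promoter, at -309 bp. Cxcr4, which retains hematopoietic progenitors in the bone marrow, had a peak of 15.8 at -194751 bp, the farthest distance of any immune group peak and the only one over 100 kb. Ccr1, a receptor of inflammatory chemokines, had a peak of 16.7. The chemokines themselves were represented by Ccl3, a macrophage inflammatory protein, with a peak of 20.6, and by Cx3cl1, or fractalkine, with a peak of 20.0 in intron 2 of 2.

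The group of CD and lymphocyte antigens had 16 peaks at 14 genes with a median score of 23.9, and by the list none of them lay within 1 kb of the TSS of its gene. Cd47, which signals to phagocytes that a cell should not be eaten, had 3 peaks spread over 47823 bp upstream of the gene. The strongest of them lay farthest away, with a score of 40.6 at -55221 bp, against 18.3 at -36809 bp and 22.8 at -7398 bp. Genes with several peaks went either way in this. The farther peak was the higher one at Lifr and Cmklr1, and the nearer one at Ifnar2, Il21r and Il17ra. By RefSeq, all 3 Cd47 peaks lay in neighbouring transcribed loci, Gm16619 and Gm4633, rather than in Cd47 itself. The strongest of the Cd47 peaks was 96 bp from the TSS of Gm16619. Cd34, the marker of hematopoietic stem and progenitor cells, had a peak of 37.5 in intron 1 of 7, at 4866 bp from the TSS. Cd276, a member of the B7 family, had a peak of 46.3 at -1103 bp by the list but within the gene by RefSeq, and Cr2, the complement receptor of mature B cells, a peak of 37.2 in a CpG island at -65005 bp.

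T-cell surface genes of the same group had peaks of intermediate height. Cd28, the costimulatory receptor, had a score of 28.7 at -43468 bp. Cd44, the hyaluronan receptor that is high on early thymocytes, had a score of 26.9 at -47031 bp. Cd69, an early activation marker, had a score of 25 at -9208 bp and the highest focus ratio of all receptor and cytokine peaks, 0.917. Cd2, an adhesion molecule of T cells and natural killer cells, had a score of 21.8. The lower peaks were at Cd83, an activation marker of dendritic cells and lymphocytes, with 19.4, at Cd93, a marker of early B-lineage progenitors, with 19.1, and at Ly86, the partner of a Toll-like receptor homologue, with 17. Bst2, the interferon-induced tetherin, and Bst1, an ectoenzyme of the bone marrow stroma and of B-lineage cells, had the lowest scores, 16.2 and 16.1.

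Ly6e, a small surface protein anchored in the membrane by a lipid, had the highest score of any immune gene, 106.2 at -20998 bp. This peak lay in an LTR element within Gm39556, and its 50 bp words had a median of 5 copies in the genome. In repeated sequence, defined as windows of which at least 50% of the 50 bp words occur more than once, a read can match several places, so the score could not be assigned to the site at Ly6e alone. The list held 13 such peaks among the 130 (10.0%), against 11.9% of all windows. Annotated repeat elements, whether or not their sequence recurs, held 22 of the 130 (16.9%), against 15.2% of the list.

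The same limit held for 7 of the 11 peaks in the group of Fc, lectin and immunoglobulin-like receptors. These 11 peaks lay at 7 genes, with scores from 15.2 to 22.2. All 7 peaks at Pira2, Pirb and Fcrla were in repeated sequence. Pira2 and Pirb, an activating and an inhibitory paired receptor of myeloid cells and B cells from a cluster of near-identical genes, each had a promoter peak, with scores of 19.4 and 20.7. The Pira2 promoter peak at -108 bp had the same 200 bp sequence as the Pirb peak of 19.4 at -19615 bp, and both had the same score. The peaks of Fcrla, an Fc receptor-like protein of B cells, were also identical in sequence and scored 19.8 each. The peaks outside repeated sequence were at Lair1, an inhibitory collagen receptor (22.2), at Cd207, the langerin of Langerhans cells (19.9), at Cd200r3, a CD200 receptor family member (16.9), and at Treml2, a TREM family member (16.5). No window of these 11 held a bHLH word, against 33.6% of all windows, and since 7 of the windows were in repeated sequence and some were identical, they stand for fewer distinct sequences.

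The 5 smallest immune groups held 1 gene each. Cd247, the zeta chain that couples the T-cell receptor to kinases, had a peak of 27.0 in intron 1 of 7. Tnfrsf9, the costimulatory receptor 4-1BB, had a peak of 22.9 in intron 1 of 6, at -862 bp from its nearest RefSeq TSS. Il12a, a subunit of interleukin 12 and the only gene of the cytokine group, had a score of 25.1 at -13565 bp. Marco, a scavenger receptor of macrophages, had peaks of 27.5 and 16.6 on opposite sides of its TSS, 89250 bp apart. The only integrin gene with a peak was Itgad, an alpha chain of leukocyte integrins, with a score of 23.1 in repeated sequence.

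Outside the immune groups, the 16 genes of G protein-coupled receptors had 18 peaks with a median score of 23.65. Ptger2, the prostaglandin E2 receptor EP2, had a score of 52.0 at 23337 bp downstream of its TSS, in a window with 3 RUNX words. Gpr137b and its pseudogene Gpr137b-ps both scored 51.3 in intron 1 and had identical windows, so they cannot be told apart. Gpr33 (39.0), Adgre5 or CD97 (30.2 and 24.7, 786 bp apart) and Adora3, the adenosine A3 receptor (25.1 and 22.1), had upstream peaks. F2r, the thrombin receptor PAR1, had a promoter peak of 27.9 at -156 bp, and Tbxa2r, the thromboxane receptor, and Ptafr, the receptor of platelet-activating factor, had peaks within 1 kb of 19.8 and 15.4.

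The growth factor receptors had 4 peaks at 3 genes, each with an ETS word and none with a RUNX word, where the shares over all windows were 51.5% and 55.0%. So few windows allow no comparison with the list. Pdgfrb, a receptor of platelet-derived growth factor, had a score of 36.2 in intron 1 of 22, and the only other listed peak within 50 kb of it was that of its neighbour Csf1r. Tgfbr1 and Tgfbr2, the receptors that carry TGF-beta signals, had scores of 22.6 and 18.9 and of 16.7. Chrna9, a nicotinic acetylcholine receptor subunit, had the highest score outside repeated sequence among all receptor and cytokine peaks, 54.2 at -37763 bp by the list and at -5493 bp from its nearest RefSeq TSS. Lbr, a receptor of the inner nuclear membrane, had upstream peaks of 24.2 and 22.8. Scores of 15, the minimum of the list, were found at Trpv2, an ion channel, and at Arntl2, a transcription regulator.

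The words also caught proteins that are no receptor or cytokine. At 12 genes, with 14 peaks and a median score of 17.3, the word had another sense. Examples were disintegrin (Adam6b, Adamts14), cytokinesis (Dock8, Dock10), sperm antigen (Specc1, Specc1l), stromal antigen (Stag1), autoantigen (Uaca) and the retinal S-antigen (Sag). Others of these genes were a partner of a receptor (Arnt) and a relative of that partner (Arntl2). The 2 highest scores of all, 113.2 and 112.0, came from another of them, 4930515G16Rik, a pseudogene listed for the antigen word in its description, with the peaks at -685454 and -676881 bp from its TSS. These 2 peaks had identical windows in LTR elements with a median of 6 genomic copies, and they lay inside the Igk locus. The Specc1l peak of 53.8 lay within an intron of Bcr. Both Adam6b peaks lay in the Igh locus, and the higher one, 28.4, was 4706 bp from Ighm and 870 bp from Ighj4, in the interval that is known to hold the intronic heavy-chain enhancer. The other, 15.1, was 4427 bp from Ighd. The Olfr1509 peak of 17.8 lay in the Tcra locus. The exclusion words removed 12 further peaks at 9 genes, among them 2 peaks of Ptprc, the CD45 phosphatase (18.7 and 15.8), and 2 of Kdr (26.1 and 15.2).

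Most genes had a single peak. Of the 109 genes, 91 had 1 peak, 15 had 2 and 3 had 3, the last being Cd47, Ccr9 and Pira2. At least 2 peaks were thus found at 18 of 109 genes, against 225 of 1167 genes in the whole list, and 11 of the 18 were immune genes. Counting only peaks whose listed gene also has the nearest RefSeq TSS, 8 genes had at least 2. Within genes with several peaks outside repeated sequence, the highest score was 2.54 times the lowest at Ccr9, 2.27 times at Ifnar2, 2.22 times at Cd47 and 2.06 times at Il21r, but only 1.08 times at Il17ra. At Ifnar2, Ccr9, Lifr, Il21r and Il17ra, every peak had the listed gene as the nearest RefSeq TSS, whereas at Cd47 this held for 1 of 3 peaks and at Cmklr1 and Tgfbr1 for none of 2.

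**Figure D2:**
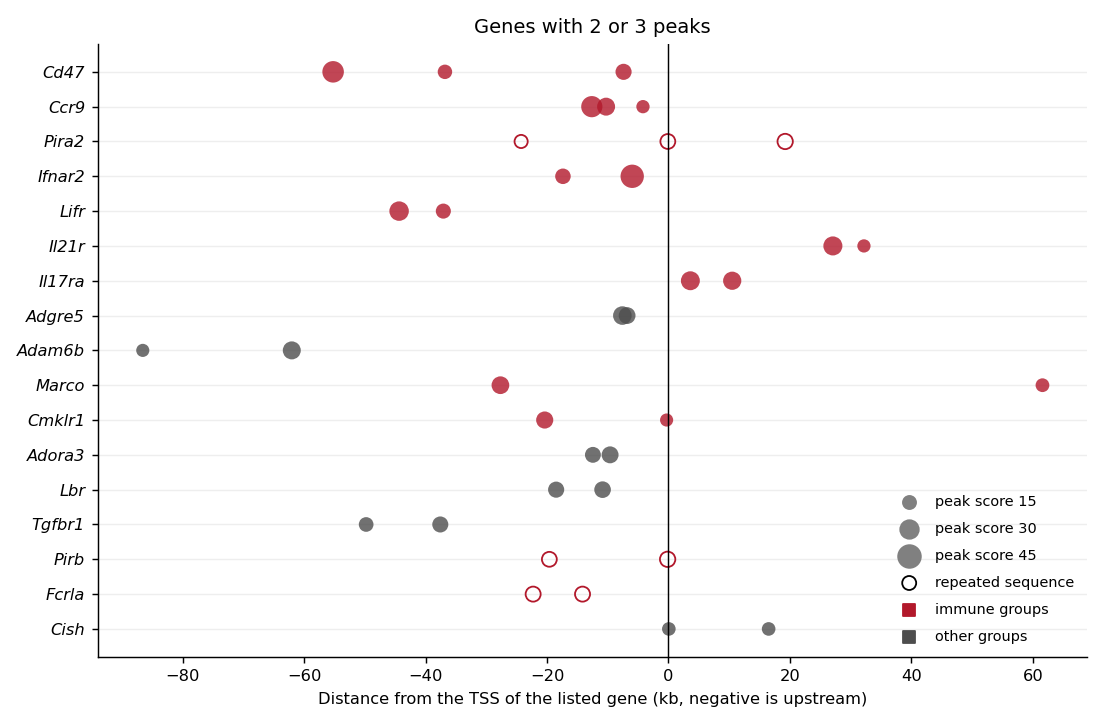
Distance of each peak from the TSS of its gene (kb, negative is upstream) for the genes with 2 or 3 receptor and cytokine peaks, with 4930515G16Rik left out for its distance; circle size gives the peak score, red is immune, grey is other, and open circles are repeated sequence. All peaks of Cd47, Ccr9 and Ifnar2 lie upstream, and those of Il21r and Il17ra downstream, of the TSS in the list; those of Lifr lie upstream of that TSS, but 1 of them lies within the gene by RefSeq.

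The peaks lay mostly away from promoters. Within 1 kb of the TSS of the listed gene, by the list, there were 13 of 130 (10.0%, 5.94 to 16.4), against a background of 10.9% of the list, and 3 of the 57 immune peaks (5.26%, 1.81 to 14.4), at Pirb, Pira2 and Cmklr1. Outside the immune groups these were F2r, Tbxa2r, Ptafr, P2rx1, Cish, Stag1, Arnt, Dock8, Dock10 and Olfr1509. None of the 13 had a score of 30 or more, and the highest was the 27.9 of F2r. In the whole list as well, fewer of the peaks of at least 30 lay within 1 kb, 4.97% of 342 against 10.9% of all. The lack of high scores near the TSS is therefore not read as particular to these genes. Counting any RefSeq TSS, predicted transcripts and other genes included, 23 of 130 peaks (17.7%, 12.1 to 25.2) were within 1 kb, against a background of 19.6% of the list, and 9 of the 57 immune peaks (15.8%, 8.54 to 27.4). The immune peaks so added were those of Il2rb, Tnfrsf9 and Cd47 (40.6) and 3 further peaks of Pira2 and Pirb at near-identical genes. By the annotation of the list, 71 peaks (54.6%, 46.0 to 62.9) were intergenic, 41 (31.5%) in introns and 10 (7.69%) in promoters, against 48.5%, 38.2% and 7.95% of all peaks. Of the immune peaks, 39 (68.4%, 55.5 to 79.0) were intergenic.

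The median distance to the TSS was 17940 bp, against 18720 bp in the list. Of the immune peaks, 34 (59.6%) lay from 10 to 50 kb away, against 41.2% of the list. More of the peaks lay upstream of their TSS, 81 of 130 (62.3%, 53.7 to 70.2) and 41 of the 57 immune peaks (71.9%, 59.2 to 81.9), than the 46.4% of the whole list. By the nearest RefSeq TSS of the listed gene, these shares were 60.8%, 68.4% and 47.7%. Another listed peak within 50 kb was present for 47 of the 130 (36.2%, 28.4 to 44.7) and for 28 of the 57 immune peaks (49.1%, 36.6 to 61.7), against 40.5%. These shares are descriptions, since peaks are not replicates and no test was made between them.

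**Figure D3:**
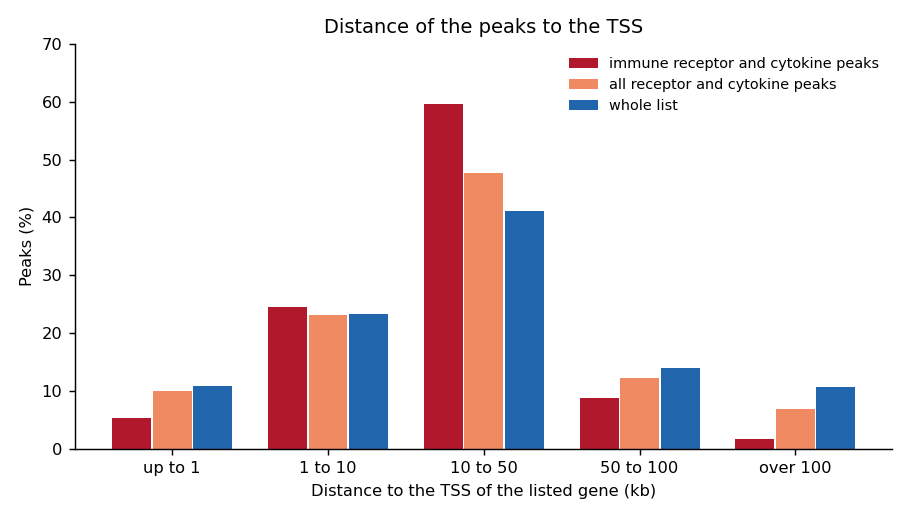
Share of peaks (%, vertical axis) by distance to the TSS of the listed gene (kb, horizontal axis) for immune receptor and cytokine peaks (red), all receptor and cytokine peaks (orange) and the whole list (blue). The class from 10 to 50 kb is the highest in each, with 59.6%, 47.7% and 41.2%.

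The assignment to a gene rests on the nearest TSS known to the authors' annotation. By RefSeq, the listed gene also had the nearest TSS for 87 of the 130 peaks (66.9%, 58.5 to 74.4), against 53.5% of the list. With the antigen receptor loci not counted as genes, 39 peaks lay within the listed gene, 30 within another gene and 61 within none. Among those in another gene were the peaks of Gpr171 in Med12l, Traf6 in Prr5l, Ghsr in Fndc3b and P2rx4 in Camkk2. Which gene a distant peak acts on, if any, was not measured.

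The motif words occurred about as often as in the list. A RUNX word was found in 65 of the 130 windows (50.0%, 41.5 to 58.5), against a background of 55.0% of all 1584 windows, and in 34 of the 57 immune windows (59.6%, 46.7 to 71.4). An ETS word was found in 73 (56.2%, 47.6 to 64.4), against 51.5%, and in 32 immune windows (56.1%). A bHLH word was found in 43 (33.1%, 25.6 to 41.5), against 33.6%, and in 15 immune windows (26.3%, 16.6 to 39.0). A GATA word was found in 27 (20.8%, 14.7 to 28.5), against 16.2%, and in 14 immune windows (24.6%, 15.2 to 37.1). For each of the 4 words, the share of the whole list lay inside the interval of all receptor and cytokine windows and of the immune windows.

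**Figure D4:**
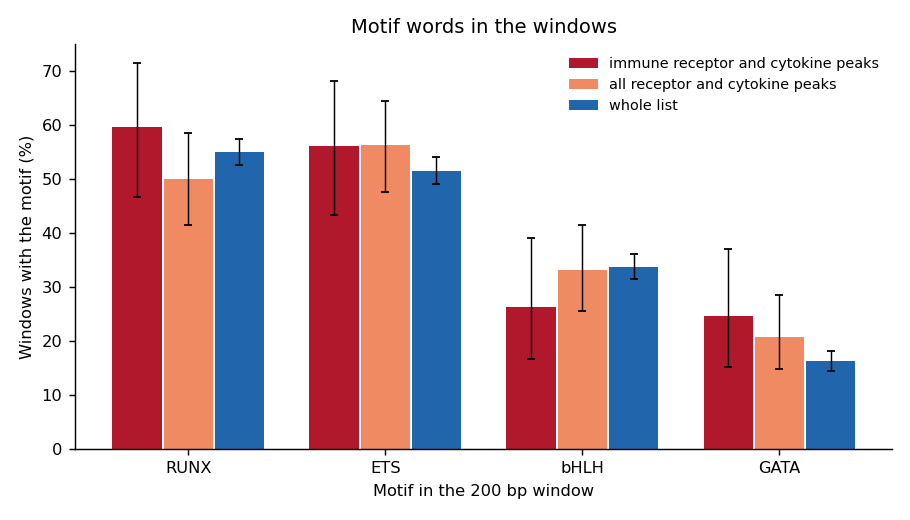
Share of 200 bp windows (%, vertical axis) with each motif word (horizontal axis) for immune receptor and cytokine peaks (red), all receptor and cytokine peaks (orange) and the whole list (blue); bars start at 0 and error bars are Wilson 95% intervals. The intervals of the 3 sets overlap for every word.

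All of RUNX, ETS and bHLH occurred in 10 windows (7.69%, 4.23 to 13.6), against 8.71% of the list, and in 5 immune windows. None of them occurred in 14 windows (10.8%, 6.52 to 17.3), against 15.5%, and in 3 immune windows, those of Cd47 (40.6), Cr2 and Ccr1. Of the 55 bHLH words in the windows, 37 (67.3%) lay within 50 bp of the peak centre, against 62.4% of the words in the list. The same share was 59.3% for RUNX words, 52.9% for ETS words and 24 of 30 (80.0%) for GATA words, against 61.8%, 57.4% and 58.2%.

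Genes without a peak were counted as well. Of 71 receptor and adhesion genes of lymphoid progenitors and early T cells, 17 had a listed peak and 54 had none. Of all protein-coding genes of RefSeq, 4.27% had one. The 71 genes were chosen with earlier results of these data known, so no difference is read from these counts. The 14 genes with receptor or cytokine peaks held 18 such peaks: Il2rb, Il21r, Csf1r, Ifnar2, Cd247, Cd2, Cd28, Cd34, Cd44, Cd69, Cd93, Cxcr4, Ccr9 and Cxcr5. Flt3, the receptor of a cytokine in the culture, had a peak of 41.9 and Selplg, a selectin ligand, peaks of up to 26.4, and with Ptprc they were the genes with a peak whose descriptions held none of the words or an excluded one. No peak was assigned to Il7r, the receptor of IL-7, to Kit, the receptor of SCF, to Notch1, Notch2 or Notch3, or to Il2ra, Cd3d, Cd3e, Cd3g, Ptcra, Cd4 or Cd8a. A gene without a listed peak may still have had one below the score of 15 or one assigned to a neighbour.

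Of the 21774 protein-coding genes of RefSeq, 2859 matched the same words, and 107 of these (3.74%) had a listed peak, against 4.27% of all protein-coding genes. Olfactory, vomeronasal and taste receptors made up 1515 of the 2859, and only 4 of them had a peak: Olfr1396, Olfr1226, Olfr1258 and Olfr1509, with scores from 17.8 to 24.4. Among the other 1344 genes, 103 (7.66%) had a peak, and among the 405 genes of the immune groups, 43 (10.6%). These shares take no account of how much sequence lies nearest to each gene, and they were not tested.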

How the data were processed

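The data were ChIP-seq of LMO2 from 2 ChIP and 2 input samples of pro-B(+) cells. Per the labels and the methods of the study, the authors aligned reads to mm10 with Bowtie 1.1.1. Reads that matched several places were retained up to a set limit on the number of places. The authors used HOMER to call peaks over the input, applied IDR to keep peaks that recurred in both replicates and scored at least 15, and annotated them. The deposited peak score is the normalized score the authors' caller gave to each peak over both replicates, and the deposited focus ratio is a fraction from the same caller. The labels and the methods differ on the kit, sequencer and read length, which the list does not settle. Total reads per sample are not in the list, so the depth is unknown, and the labels do not say whether the replicates were separate cultures.

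Peaks were chosen by the words of the gene description, sorted into groups by further words, and described by counts, medians and shares with Wilson 95% intervals beside the whole list. The members, gene groups and gene lists were chosen with earlier results of these data known. Genes named were the 10 highest peaks, genes with at least 2 peaks, all immune group genes, genes with a peak within 1 kb of a TSS, the lowest peaks and the 71 listed receptor genes, and further genes were named after their values were seen. A peak that the rule would name is not reported here. Sequences and genes came from RefSeq GRCm38.p6. All 109 symbols were found there, and the listed distance was within 10 bp of that to the named RefSeq transcript for 121 of 130 peaks. Motif words were searched on both strands in 200 bp windows around the centres of 1584 peaks, as 1 peak lay outside chromosomes 1 to 19, X and Y. The word search and the count of 50 bp copies were tested on simulated data. Alternatives were a higher minimum score, other word lists, distances, thresholds, consensus words and windows. Software versions were pandas 2.3.3, numba 0.67.0, matplotlib 3.10.9, SciPy 1.17.1 and NumPy 2.4.6 under Python 3.11.15.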

Additional observations from a re-analysis of the deposited data

How the results depend on the processing

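Of 67 values recomputed under alternatives, 49 stayed within 1.5 times the reported count, within the quartiles of the reported scores or within the Wilson interval of the reported share, and 18 moved beyond that. A minimum score of 30 left 23 peaks at 22 genes, 11 of them immune group peaks, with 1 gene having at least 2 peaks. Their median score was 45.8, 0.0% lay within 1 kb of the listed TSS, 65.2% held the ETS word and 43.5% the bHLH word, where all listed peaks at that minimum gave a median of 40.55 and shares of 4.97%, 52.2% and 34.3%. Keeping only peaks whose listed gene has the nearest RefSeq TSS left 8 genes with at least 2 peaks. A high score taken as at least 25 was reached by 31.5% of the peaks, and one of at least 40 by 10.0%, against 31.9% and 11.2% of the list. In windows of 100 bp, the RUNX, ETS and bHLH words occurred in 33.1%, 35.4% and 22.3% of windows, against 37.6%, 33.4% and 21.5% of the list, and with wider consensus words ETS occurred in 78.5% and bHLH in 56.9%, against 78.0% and 52.7%. These settings keep fewer peaks or change the gene assignment, a threshold, the window or the words, and why each value moved was not tested. No value moved when olfactory, vomeronasal and taste receptors, peaks over 100 kb from the TSS or second copies of identical windows were left out, or when 2.5 kb replaced 1 kb. Of the alternatives added after the data were seen, leaving out words of another meaning or repeated sequence moved none. Counting any RefSeq TSS gave 17.7% within 1 kb, against 19.6% of the list. At a minimum score of 30 this share was 4.35% of only 23 peaks, with no list value beside it. No paired analysis was possible because each peak has a single value that covers both replicates, and leaving out a replicate could not be run for the same reason.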

Other observations

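Antigen receptor genes are the best known lymphocyte receptors, but the peaks in their loci were mostly listed under other genes. In the 6 antigen receptor loci of RefSeq there were 33 listed peaks, of which 5 were receptor or cytokine peaks by their listed gene. Of the other 28, 10 had no gene name in the list. Over 100 kb from the listed TSS lay 22 of the 28, against 10.6% of all listed peaks. By locus there were 12 peaks in Tcra, 9 in Igh, 5 in Igk, 4 in Tcrg, 3 in Tcrb and none in Igl. Of all 33, 23 were in repeated sequence, against 11.9% of all windows. An identical window was shared with another listed peak by 12 of the 33, against 4.23% of all windows. Many of these scores could thus not be assigned to a single segment.

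Some of the peaks lay at variable segments, grouped here by family. In Tcra, 9 of the 12 peaks overlapped a Trav15 segment or lay within 100 bp of one, with scores from 22.5 to 32.7, and 2 others of 15.8 each overlapped Trav13 segments. Of the 12 Tcra peaks, 10 were in repeated sequence and 8 had a window identical to that of another listed peak. Among these 8 were the 2 Trav13 peaks and several Trav15 peaks of equal score, so the counts stand for fewer distinct sequences. In Igh, 6 of the 9 peaks overlapped Ighv1 segments, with scores from 15.1 to 17.4. In Igk, 3 of the 5 overlapped Igkv10 segments, with scores from 15 to 32.0. A Tcrb peak of 24.4 in unique sequence lay between Trbc2, 6244 bp away, and Trbv31, 3060 bp away, the interval that is known to hold the Tcrb enhancer. These families were singled out after their positions were seen, with no test, and the remaining peaks lay elsewhere in the loci.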
